A study of Mus musculus with 6 samples.

Results

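Splicing factor genes were read as 41 listed mouse genes among the 39179 genes counted in each library. They comprised 12 SR protein genes (Srsf1 to Srsf7, Srsf9 to Srsf11, Tra2a and Tra2b), 16 hnRNP genes (Ptbp1 among them), 9 core spliceosome genes, and 4 genes of RNA helicases (Ddx5, Ddx39b) and DBHS proteins (Sfpq, Nono). Every listed symbol matched 1 gene identifier. The libraries hold mRNA of B16-F10, a melanoma line from C57BL/6 mice, grown in culture. Of the 6 libraries, 3 were labelled wild type for Sirpa (Sirpa-WT) and 3 knockout (Sirpa-KO). Sirpa encodes SIRPα, a receptor for CD47. The labels name no treatment, no method of knockout and no clone, and do not say whether replicates were grown separately. The p-values therefore describe spread among libraries, which may be technical. The comparison asks how expression differs between the lines without treatment. Per-sample labels give the tissue as tumor and the cell line as Pmel, which differs from the B16-F10 of the series text.

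Splicing removes introns from pre-mRNA. The spliceosome does this with small nuclear ribonucleoproteins: U1 marks the 5′ splice site, U2AF and U2 mark the 3′ splice site and branch point, and the U4/U6.U5 particle then joins to form the catalytic centre. SR proteins bind exon sequences and mostly favour inclusion of the exon, while many hnRNPs bind introns or exons and oppose it. Several SR and hnRNP genes limit their own expression through alternatively spliced exons that carry a premature stop codon.

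One library stood apart and is called the deep library below. Sirpa-KO replicate 1 held 29877270 counts, against 338824 to 411695 in the 5 shallow libraries, and processed pseudogenes, intronless copies of mRNAs, took 0.177% of its counts against 26.5% to 29.7%. Results are therefore given with and without it. The 3 Sirpa-WT libraries held 12, 7 and 3 counts of Sirpa, and Sirpa-KO replicates 1 to 3 held 1584, 6 and 6. These counts do not check the genotype labels. All 10 listed melanocyte genes were detected in every library, with a summed level of 16878 to 19986 CPM (counts scaled to the library total) in Sirpa-WT and 13317 to 16466 in Sirpa-KO. Listed leukocyte genes (12) summed to 3.82 to 32.6 CPM, fibroblast genes (6) to at most 13.6 CPM and endothelial genes (4) to at most 2.72 CPM. In each shallow library 9 or 10 of the leukocyte genes were at 0. The part of the melanocyte difference in the results below was not tested.

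In the shallow libraries, about as many counts fell on pseudogene copies of splicing factor genes as on the genes themselves. Annotated pseudogenes were assigned to a splicing factor gene when they shared at least 50 words of 25 bases with its coding sequence, more than with any other coding gene. This gave 56 copies of 16 genes, and 25 genes were assigned none. Cdc5l is 1 of the 25, although 63.5% of the words of its coding sequence also occur in annotated pseudogenes. Of all counts on the 41 genes and their copies, the copies held 50.2%, 50.4% and 51.6% in the 3 Sirpa-WT libraries, then 46.6% and 44.3% in Sirpa-KO replicates 2 and 3. In the deep library they took 0.48%. Genes and copies together made up 2.20% to 2.38% of the counts of each shallow library and 1.78% of the deep one. All copies are listed by the annotation as pseudogenes, and nothing here measures whether they are transcribed.

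The sequences below show how closely a copy can match its gene. For each gene, the coding junction whose surroundings differ least from the copy was chosen, so the match does not stand for the whole copy. Each pair is a stretch of 80 bases of spliced coding sequence around an exon junction, with the most counted copy of that gene beside it, from GENCODE mouse release 21 (GRCm38). In the gene lines, capitals mark the 2 bases on either side of the junction. In the pseudogene lines, capitals mark bases that differ from the gene.
Hnrnpa1: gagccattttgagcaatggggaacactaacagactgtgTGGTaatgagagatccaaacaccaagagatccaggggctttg
Gm10052: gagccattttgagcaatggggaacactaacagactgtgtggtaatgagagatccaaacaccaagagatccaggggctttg
Hnrnpa3: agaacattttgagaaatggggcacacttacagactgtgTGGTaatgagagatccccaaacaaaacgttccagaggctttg
Gm8991: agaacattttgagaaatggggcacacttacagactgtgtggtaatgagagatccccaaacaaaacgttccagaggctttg
Nono: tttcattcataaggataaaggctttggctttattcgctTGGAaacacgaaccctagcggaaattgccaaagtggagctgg
Gm8806: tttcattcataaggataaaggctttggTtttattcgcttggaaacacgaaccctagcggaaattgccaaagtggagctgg
Srsf3: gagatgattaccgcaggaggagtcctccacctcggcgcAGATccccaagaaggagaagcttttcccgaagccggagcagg
Gm7083: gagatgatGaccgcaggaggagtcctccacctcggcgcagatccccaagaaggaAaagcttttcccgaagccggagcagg

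The Hnrnpa1 stretch lies at chr15:103241157-103241485 on the plus strand, with an intron of 249 bases between its exons, and its copy in Gm10052 is an unbroken run at chr9:123690021-123690100 on the minus strand. The Hnrnpa3 stretch is at chr2:75661549-75661710 (plus) and that of Gm8991 at chr5:16730906-16730985 (minus). Both stretches match their copies at every base. The Nono stretch, at chrX:101439641-101441555 (plus), differs from Gm8806 at chrX:80534770-80534849 (minus) by 1 base. Srsf3, at chr17:29038585-29041207 (plus), differs from Gm7083 at chr15:59978023-59978102 (plus) by 2 bases, and its last base belongs to the exon after next, a junction that is not marked. Over longer stretches, the longest run that Gm10052 shares with an Hnrnpa1 coding sequence of 1119 bases is 752 bases, and that of Gm8991 with Hnrnpa3 is 285 bases. It is shorter for Gm8806 with Nono (146 bases) and for Gm7083 with Srsf3 (62 bases).

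Hnrnpa1, an abundant hnRNP that binds exonic and intronic silencers, received 228, 203 and 181 counts in the 3 Sirpa-WT libraries, and 294 and 289 in Sirpa-KO replicates 2 and 3. Its 9 copies received 1358, 1097 and 1107, and then 1132 and 1111. The copies thus held 84.4% to 85.9% of the sum in Sirpa-WT and 79.4% in both shallow Sirpa-KO libraries. In the deep library the gene had 27554 counts and its copies 369, or 1.32%. Gm10052 alone, at chr9:123689230-123690192, had 959 to 1235 counts in each shallow library and 147 in the deep one, which is 82.6 times as deep as the mean of the others.

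Hnrnpa3, a relative of Hnrnpa1 that binds similar sequences, had 24 assigned copies. Hnrnpa3 itself received 150 to 160 counts per Sirpa-WT library, while its copies received 1492 to 1822. In Sirpa-KO replicates 2 and 3 the gene received 158 and 183, and its copies 1347 and 1352. The copies' share was 90.3% or more in Sirpa-WT, 89.5% and 88.1% in Sirpa-KO replicates 2 and 3, then 0.988% in the deep library. Hnrnpf, which binds G-rich intronic sequence and whose coding sequence lies in a single exon, showed the same split: its 5 copies took 86.8% to 91.9% in the shallow libraries and 0.862% in the deep one. For Nono the single copy took 51.8% to 66.4% and 0.176%, and for Srsf3 the 2 copies took 38.0% to 42.4% and 0.48%. Srsf5 had 30.9% to 44.6% of its sum on its single copy in the shallow libraries. Hnrnph2, with few counts, had 25% to 52.6%. Ddx5 had 14.2% to 16.9% of its sum on Gm12183 in the shallow libraries, and Hnrnpk had up to 15.1% on Gm7964.

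**Figure D1:**
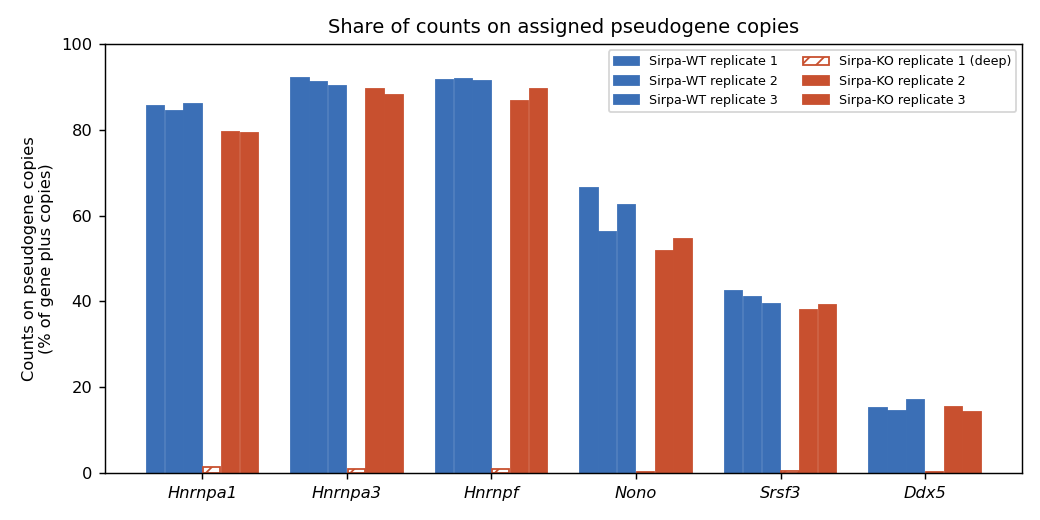
Counts on assigned pseudogene copies as a percentage of the counts on the gene plus its copies, for 6 splicing factor genes (horizontal axis) in each of the 6 libraries (1 bar per library, no error bars). The hatched bars of the deep library lie at or below 1.32%, while the bars of the shallow libraries for Hnrnpa1, Hnrnpa3 and Hnrnpf lie at or above 79.4%.

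Per kilobase of exon sequence, the 4 most abundant of the 41 genes in the shallow libraries were hnRNP genes. Others of that class lay far lower, such as Hnrnpr at 9.58 and Hnrnpd at 16.4 CPM per kb. Hnrnpab, which binds RNA and single-stranded DNA, stood at 412 CPM per kb on the mean of the 5 libraries, Hnrnpa1 at 346, Hnrnpa2b1 at 224 and Hnrnpm at 197. Ddx39b (168), Sfpq (163), U2af1 (154) and Ddx5 (151) followed. In the deep library the order differed, with Hnrnpa2b1 first at 589 CPM per kb, Hnrnpa1 second at 481, and Hnrnpm, Ddx39b and Sfpq at 66.1, 65.6 and 64.6. Among SR protein genes, Tra2a (103) and Srsf3 (88.6) had the highest levels per kb in the shallow libraries. Counts on copies are left out of these levels, although copies held most of the sum for Hnrnpa1, Hnrnpa3 and Hnrnpf in the shallow libraries. At the other end, Srsf4 received 0, 0 and 1 counts in the Sirpa-WT libraries, then 2 in each shallow Sirpa-KO library. Srsf9 (3 to 10 counts), Hnrnpa0 (1 to 9) and Hnrnph2 (5 to 11) were also near or below the depth limit, where 3 counts equal 7.29 to 8.85 CPM. These 4 genes did not pass the count filter, and 37 of the 41 were tested. In the deep library they stood at 16.3, 35.2, 70.5 and 61.5 CPM.

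**Figure D2:**
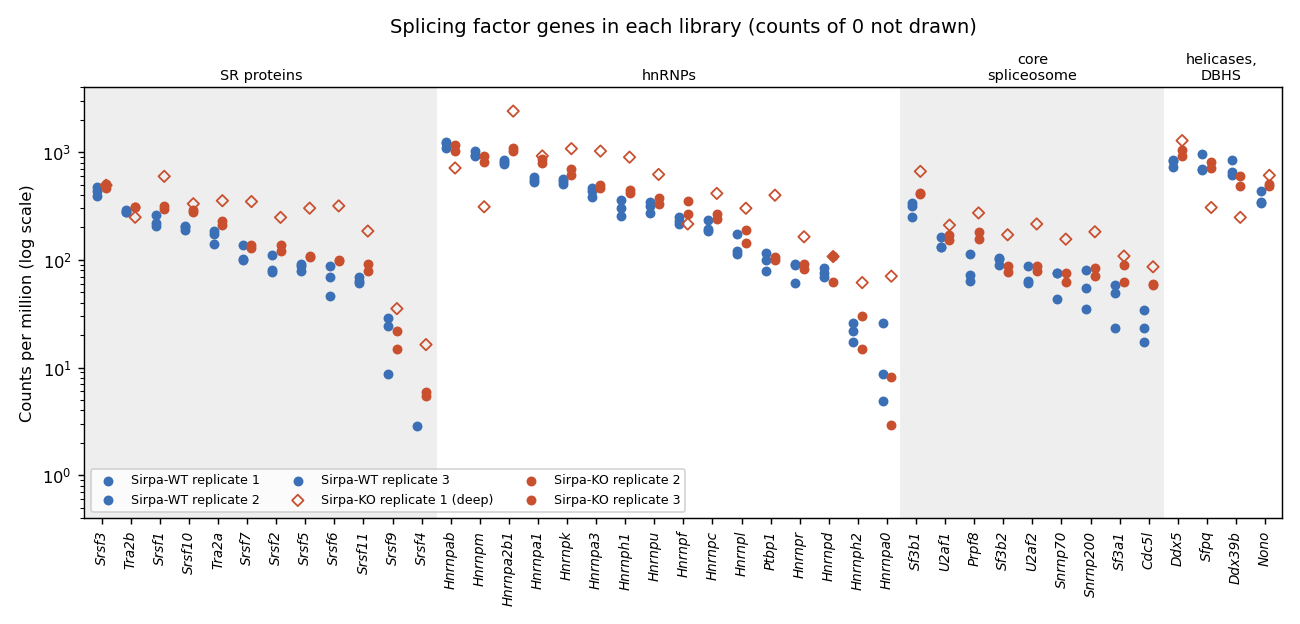
CPM on a log axis for the 41 genes (horizontal axis, grouped by class and ordered by shallow-library mean) in each library (1 point per library). Open diamonds, the deep library, lie above the other points for most genes and below them for Hnrnpm, Sfpq, Ddx39b, Hnrnpab and Tra2b. Counts of 0 are not drawn.

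With all 6 libraries, 0 of the 37 genes reached an adjusted p below 0.05 in edgeR's quasi-likelihood test, where 0% of 5397 genes did (smallest adjusted p = 0.574). At an unadjusted p under 0.05, 2 of the 37 passed, Prpf8 and Cdc5l, against 6.37% of all genes and 343 of 4276 protein-coding genes. DESeq2 called 0 of the 37. In CPM, all 3 Sirpa-KO libraries lay above all Sirpa-WT libraries for 19 of the 37 genes and below them for 1 (Ddx39b), where 20.4% and 10.2% of all genes did so. These shares include processed pseudogenes, which took 0.177% of the deep library's counts and so could rarely be higher there. The biological coefficient of variation, the spread between libraries of a group beyond counting error, was 75.8%, against 7.25% without the deep library.

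Over the 5 shallow libraries, Prpf8, Cdc5l and Hnrnpa1 were higher and Ddx39b was lower in Sirpa-KO. EdgeR's quasi-likelihood test called these 4 of 37 genes, where 5.84% of 5510 genes were called, 1.32% higher and 4.52% lower. By class, 2 of 9 core spliceosome genes and 1 of 14 tested hnRNP genes were called higher, and 1 of 4 helicase and DBHS genes lower. Of the 2, Cdc5l entered the test through its Sirpa-KO libraries, as described below. Among SR protein genes, 0 of 10 tested passed (1 of the 10 at an unadjusted p under 0.05). At an unadjusted p under 0.05, 12 of the 37 genes passed, against 20.8% of all genes. DESeq2 called Hnrnpa1 alone, among the 20 of these genes to which it gave an adjusted p, where it called 11.7% of the 1130 genes with one. EdgeR called 0 without Sirpa-KO replicate 2 and 2 without Sirpa-KO replicate 3, where 2.02% and 2.08% of all genes were called. Each of these leaves 1 shallow Sirpa-KO library.

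Prpf8, the U5 protein that forms the centre of the spliceosome's catalytic core, stood at 114, 72.7 and 63.7 CPM in Sirpa-WT replicates 1 to 3 and at 183 and 158 CPM in Sirpa-KO replicates 2 and 3. The deep library had 273 CPM. Each Sirpa-KO library was above each Sirpa-WT library. The Sirpa-WT mean was 83.5 ± 26.9 CPM (SD, n = 3) and that of the shallow Sirpa-KO libraries 170 ± 17.8 (SD, n = 2). On the log2 scale Prpf8 rose by 0.88 ± 0.22 (SE, edgeR adjusted p = 0.00275). The gene (ENSMUSG00000020850) lies at chr11:75486816-75509449 on the plus strand and has 42 merged exons. DESeq2 gave it no adjusted p.

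Cdc5l, a scaffold protein of the Prp19-associated complex that activates the spliceosome, had 34.0, 23.3 and 17.4 CPM in Sirpa-WT against 59.0 and 59.8 CPM in Sirpa-KO replicates 2 and 3, with 86.2 CPM in the deep library. Again the groups did not overlap. These values rest on 14, 8 and 6 counts against 20 and 22. The log2 fold change was 1.10 ± 0.36 (SE, edgeR adjusted p = 0.0407). Cdc5l entered the test through its Sirpa-KO libraries, since only 1 Sirpa-WT library reached the filter level of 28.9 CPM, so its call is no independent evidence of a difference. It was not called with no count filter (adjusted p = 0.131), among protein-coding genes only (0.0558), or with any 1 library left out except Sirpa-WT replicate 1.

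Hnrnpa1 stood at 554, 590 and 524 CPM in Sirpa-WT, at 868 and 786 in Sirpa-KO replicates 2 and 3, and at 922 in the deep library. Its mean was 556 ± 33.4 CPM (SD, n = 3) in Sirpa-WT against 827 ± 57.7 (SD, n = 2). All Sirpa-KO values lay above all Sirpa-WT values. The log2 fold change was 0.45 ± 0.12 (SE, edgeR adjusted p = 0.00621). This is the change of the counts that were placed on the gene. With the counts of its 9 copies added, the sum for Hnrnpa1 was 3852, 3781 and 3727 CPM in Sirpa-WT, then 4209 and 3808 in Sirpa-KO replicates 2 and 3, and the log2 fold change was -0.04 (edgeR adjusted p = 0.85). The direction for Hnrnpa1 therefore turns with the treatment of its copies, and its rise is uncertain. The share of all counts on processed pseudogenes moved with the groups too, at 28.6% to 29.7% in Sirpa-WT against 26.5% and 26.6% for shallow Sirpa-KO libraries, and its part in the result was not tested.

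Ddx39b, the helicase UAP56, which helps U2 join the branch point and loads export factors onto mRNA, was lower. It stood at 843, 649 and 608 CPM in Sirpa-WT, at 481 and 604 CPM in Sirpa-KO replicates 2 and 3, and at 248 CPM in the deep library. The groups did not overlap, but Sirpa-WT replicate 3 and Sirpa-KO replicate 3 were nearly level, and Sirpa-WT replicate 1 was the highest. Means were 700 ± 126 CPM (SD, n = 3) in Sirpa-WT against 542 ± 86.8 (SD, n = 2), and the log2 fold change was -0.49 ± 0.12 (SE, edgeR adjusted p = 0.00351). Without Sirpa-WT replicate 1 it was -0.33 (adjusted p = 0.101) and without Sirpa-KO replicate 2 it was -0.36 (adjusted p = 0.286). Neither passed, nor did DESeq2 (adjusted p = 0.0506) or scaling by library size alone (-0.35, adjusted p = 0.0532). Ddx39b lies at chr17:35241746-35253707 (plus strand, GRCm38).

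**Figure D3:**
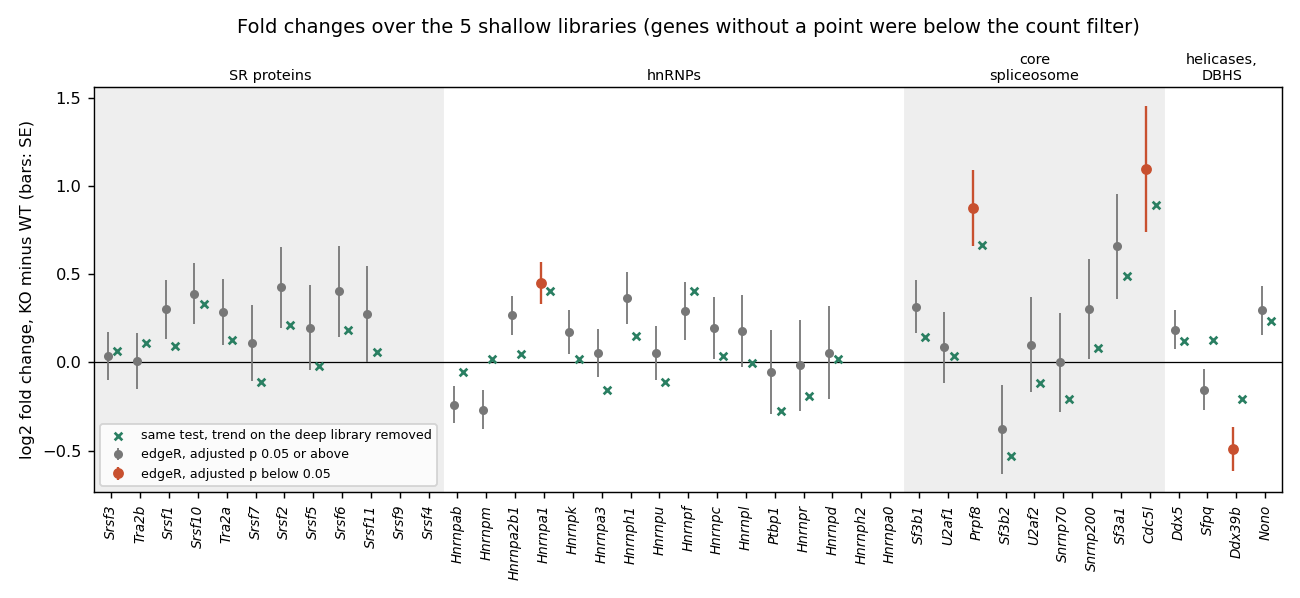
Log2 fold change of each gene, Sirpa-KO minus Sirpa-WT, over the 5 shallow libraries (points, bars are 1 SE) and the same value with the trend on the deep library removed (crosses). The 4 genes in red passed edgeR's test at an adjusted p below 0.05. With the trend removed, Hnrnpa1 alone did.

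The remaining 33 tested genes did not pass over the shallow libraries. Fold changes were positive in 30 of the 37 tested genes, with a median of 0.19 on the log2 scale, against a median of 0.013 over all genes tested and 0.036 over protein-coding ones, of which 53.5% were positive. By class the median was 0.28 for SR protein genes, all 10 positive, 0.30 for core spliceosome genes, 0.11 for hnRNP genes and 0.016 for helicases and DBHS proteins. In 21 of the 37 genes both shallow Sirpa-KO libraries lay above all Sirpa-WT libraries in CPM, and in 2 (Ddx39b and Sf3b2) they lay below, where 26.3% and 11.8% of all genes did so. CPM scales each library to its total, so it carries the shift that TMM scaling removes. Scaling by library size alone moved the median of all genes from 0.013 to 0.15, called 9 of the 37 higher and 0 lower, and gave these 37 a median of 0.32. Over all genes it called 5.06% higher and 2.32% lower, the opposite balance to the 1.32% and 4.52% under TMM.

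Among SR protein genes, Srsf2, which binds exonic enhancers and acts in transcription elongation, had 77.7, 111 and 81.0 CPM in Sirpa-WT against 121 and 139 CPM in Sirpa-KO replicates 2 and 3. Its log2 fold change was 0.42 ± 0.23 (SE, edgeR adjusted p = 0.277), the largest of its class. Srsf6 went from 87.4, 69.8 and 46.3 to 100.3 and 97.9 CPM (0.40 ± 0.26, adjusted p = 0.387). Both genes were higher in each shallow Sirpa-KO library than in any Sirpa-WT library, and neither passed the test. Tra2a, a relative of fly Transformer-2 that binds GAA-rich enhancers, had 141, 175 and 185 CPM against 230 and 209 (0.28 ± 0.19, adjusted p = 0.394). Srsf3, the smallest SR protein, showed 389, 439 and 472 CPM against 502 and 462, with overlapping groups (0.037 ± 0.14, adjusted p = 0.916). Srsf10 had the smallest unadjusted p of the class (0.0237), at 188 to 204 CPM against 277 and 288 (0.39 ± 0.17, adjusted p = 0.161). It is named here after its value was seen. The other SR protein genes tested, Srsf1, Srsf5, Srsf7, Srsf11 and Tra2b, lay between 0.0080 (Tra2b) and 0.30 (Srsf1). Srsf2 overlaps Mfsd11 and Mettl23 on the opposite strand, and no strand option was set in counting, so reads of these genes cannot be told apart where they overlap. Srsf2 is not the only such gene. Among others, Hnrnpm overlaps March2 and Sfpq overlaps Gm12940 on the same strand, and Hnrnpab overlaps Phykpl on the opposite one. Overlap here is of whole gene spans, and its effect on the counts was not tested.

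Among hnRNP genes, Hnrnph1, a G-tract binding protein, had 357, 305 and 255 CPM in Sirpa-WT and 413 and 449 in the shallow Sirpa-KO libraries (0.37 ± 0.15, edgeR adjusted p = 0.117). The groups did not overlap, yet the gene missed the threshold. Hnrnpab had 1241, 1227 and 1082 CPM against 1015 and 1164, which overlap (-0.24 ± 0.10, adjusted p = 0.155). Hnrnpf had 248, 215 and 229 CPM against 348 and 269 (0.29 ± 0.17, adjusted p = 0.302), and with its 5 copies added the value turned to -0.20 (adjusted p = 0.155). Hnrnpa3 had 386, 436 and 463 CPM against 466 and 498, a log2 fold change of 0.055 ± 0.14 (adjusted p = 0.865). With its 24 copies added it was -0.28 (edgeR adjusted p = 0.0168), at 4781 to 4869 CPM against 4442 and 4175. The sum was thus called lower, although the counts on the gene were not. With copies added for all genes, 4 of the 38 tested were called (Prpf8 and Cdc5l higher, Ddx39b and Hnrnpa3 lower), where 5.76% of all genes were. Of the hnRNP genes not yet described, Hnrnpa2b1 (0.27, unadjusted p = 0.0141) and Hnrnpm (-0.27, unadjusted p = 0.0155) came nearest to a call in edgeR, and the others lay between -0.056 (Ptbp1) and 0.19 (Hnrnpc).

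Of the 56 copies, 44 were tested as genes of their own, and edgeR called 3 lower and 0 higher, beside 98 lower and 6 higher of 1121 pseudogenes tested in all. The 3 were Gm8991 (-0.42 ± 0.09, SE, adjusted p = 0.000539) and Gm12129 (-0.63 ± 0.18, adjusted p = 0.00985), both copies of Hnrnpa3, and Gm6430 (-0.33 ± 0.09, adjusted p = 0.0134), a copy of Hnrnpf. Gm8991 went from 2123, 2158 and 2127 CPM in Sirpa-WT to 1836 and 1637 in Sirpa-KO replicates 2 and 3, and stood at 0.268 CPM in the deep library. Gm10052, the main copy of Hnrnpa1, was at 2825 to 2999.8 CPM against 2922 and 2608 (-0.20 ± 0.09, adjusted p = 0.162).

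In the core spliceosome, Sf3b1, the U2 subunit that holds the branch point, had 338, 314 and 252 CPM in Sirpa-WT and 413 and 405 in the shallow Sirpa-KO libraries (0.32 ± 0.15, edgeR adjusted p = 0.198). U2af1, which reads the AG at the 3′ splice site, overlapped between groups, at 131, 131 and 162 CPM against 153 and 171 (0.087 ± 0.20, adjusted p = 0.857). Sf3b2 was the 1 gene of this class with a negative value (-0.38 ± 0.25, adjusted p = 0.407). Sf3a1, another U2 protein, had 58.3, 23.3 and 49.2 CPM in Sirpa-WT, below both shallow Sirpa-KO libraries (0.66, edgeR adjusted p = 0.170), and the remaining genes, U2af2, Snrnp200 and Snrnp70, lay between 0.0016 and 0.30. In the fourth class, Sfpq and Nono, which form heterodimers in paraspeckles, had values of opposite sign. Sfpq stood at 952, 695 and 683 CPM against 720 and 805, with Sirpa-WT replicate 1 the highest (-0.15 ± 0.12, adjusted p = 0.481). Nono stood at 342, 439 and 339 CPM against 484 and 509 (0.30 ± 0.14, adjusted p = 0.196), and at 0.0031 with its copy Gm8806 added.

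The deep library ordered the 41 genes differently from the shallow ones. The log2 ratio of its CPM to the mean of the shallow libraries ran from -1.58 (Hnrnpm) to 2.79 (Hnrnpa0), with a median of 0.95, close to the 0.92 of all protein-coding genes tested. Below 0 were 6 of the 41 genes, namely Hnrnpm, Ddx39b (-1.36), Sfpq (-1.33), Hnrnpab (-0.68), Hnrnpf (-0.28) and Tra2b (-0.24). Hnrnpm, which binds GU-rich sequence, had 923 to 1020 CPM in Sirpa-WT, 818 and 925 in Sirpa-KO replicates 2 and 3, and 311 in the deep library. None of Hnrnpm, Ddx39b, Sfpq and Hnrnpab had an assigned copy. Ptbp1, a repressor of exons beside pyrimidine tracts, stood at the other side, at 78.1 to 117 CPM in the shallow libraries and 398 in the deep one.

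Genes with a low ratio also tended to be lower in the shallow Sirpa-KO libraries. Over the 37 tested genes, Pearson's r between the ratio and the log2 fold change was 0.49 and Spearman's rho 0.36, and over 4295 protein-coding genes they were 0.44 and 0.49. Both measures share the shallow libraries of both groups, and genes are not independent replicates, so these values only describe the plot. The deep library is itself a Sirpa-KO library, so a fit without this trend can also lose part of a Sirpa-KO difference. Removing this trend gave Ddx39b a log2 fold change of -0.21 (edgeR adjusted p = 0.498), Prpf8 0.66 (0.0741) and Cdc5l 0.89 (0.219), so that none of the 3 passed. Hnrnpa1 kept its call at 0.41 (adjusted p = 0.0277). It was the 1 member called, where 1.98% of all genes were, and the median of the 37 fell to 0.058, with 25 positive. The part of the deep library's composition in these fold changes was not tested.

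**Figure D4:**
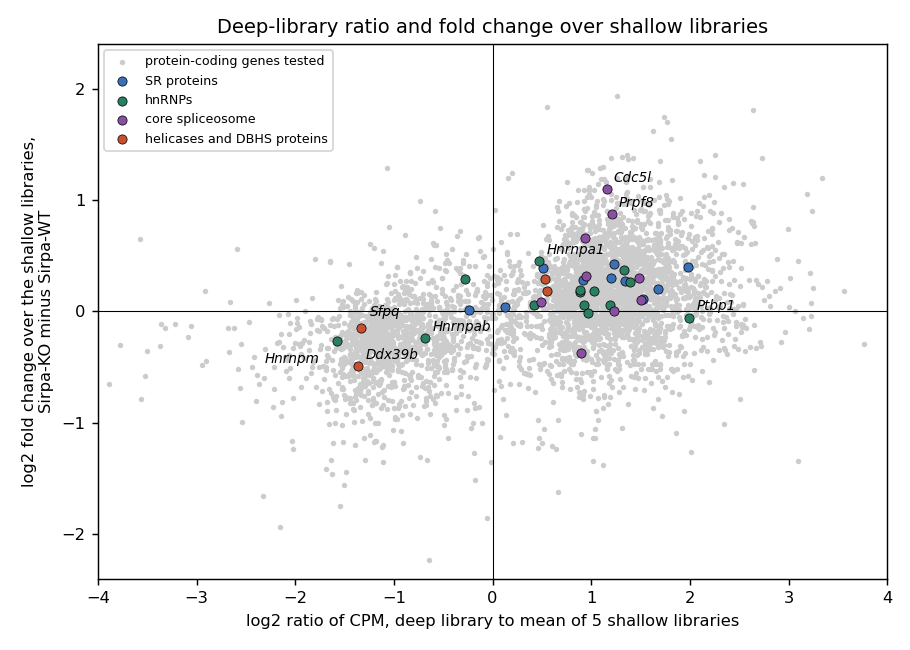
Log2 fold change over the shallow libraries (vertical axis) against the log2 ratio of deep-library CPM to the mean of the shallow libraries (horizontal axis), 1 point per gene. Grey points are protein-coding genes tested, of which 57 lie outside the axes, and coloured points are the 37 splicing factor genes by class. Hnrnpm, Sfpq, Ddx39b and Hnrnpab lie at the lower left, and Prpf8 and Cdc5l at the upper right.

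For Ddx39b and Hnrnpm, picked for their low ratio, neighbours on the chromosome also had low median ratios. The 29 tested protein-coding genes within 1 Mb of Ddx39b had a median log2 ratio of -1.29 and a median log2 fold change of -0.37, near Ddx39b's own -1.36 and -0.49. The 15 genes within 1 Mb of Hnrnpm had medians of -0.74 and -0.54. Sfpq differed from its surroundings, since its 10 neighbours on chromosome 4 had a median ratio of 0.91 against its own -1.33. So did Hnrnpab, whose 14 neighbours had a median of 0.22 against its own -0.68. Low neighbour medians also occurred beside genes of high ratio, at -1.21 for Srsf6 (own ratio 1.98), -1.05 for Snrnp200 (1.49) and -0.86 for Srsf5 (1.68). Over the 33 splicing factor genes with at least 3 such neighbours, r between a gene's ratio and that of its neighbours was 0.14, with neighbours and genes read from the same libraries.

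The wider splicing machinery was read from 132 further genes in 7 lists. Over 6 libraries edgeR called 0 of 108 tested, and DESeq2 called 0. Without adjustment, 13 had an edgeR p under 0.05, against 6.37% of all genes and 343 of 4276 protein-coding genes. Over the shallow libraries edgeR called 4 of 107, or 3 higher and 1 lower, at a background of 5.84%. The median log2 fold change was 0.15, with 73 positive and 34 negative. No call was made among 8 tested Sm and LSm genes, 6 SR protein kinase genes or 33 other splicing regulators, of which 3, 1 and 5 had an unadjusted p under 0.05, against 20.8% of all genes.

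Pnn, which encodes pinin, a factor deposited with the exon junction complex, was at 104, 102 and 107 CPM in Sirpa-WT, 198 and 196 in Sirpa-KO replicates 2 and 3, and 330 in the deep library (0.79 ± 0.20, edgeR adjusted p = 0.00455). Luc7l3, a U1-associated protein, was at 85.0, 46.5 and 69.5 CPM against 156 and 109, with 226 in the deep library (0.83 ± 0.24, adjusted p = 0.0170). Prpf38a, a spliceosome protein needed for activation, was at 68.0, 61.1 and 49.2 CPM against 118 and 119.7, with 148 in the deep library (0.87 ± 0.26, adjusted p = 0.0185). For these 3 genes every Sirpa-KO library was above every Sirpa-WT library. Dhx16, the helicase that drives activation of the spliceosome, was lower, at 104, 93.1 and 92.6 CPM against 53.1 and 65.3, with 30.1 in the deep library (-0.82 ± 0.27, adjusted p = 0.0444). With the trend on the deep library removed, none of the 4 passed (Pnn 0.58, adjusted p = 0.116), and with no count filter Pnn alone did. Without Sirpa-WT replicate 2, 1 machinery gene was called. Without Sirpa-KO replicate 2 it was 0, and without Sirpa-KO replicate 3 it was 1.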

How the data were processed

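The authors deposited raw fragment counts per gene for 6 libraries. Per the file headers, featureCounts 1.5.1 counted read pairs on exons (Ensembl release 75, GRCm38), with neither a strand nor a multi-mapping option. STAR 2.6.0 and Subread are named in the submitters' processing notes. The kit was stranded. Groups and replicate numbers came from sample titles. Symbols and types came from GENCODE mouse release 21 by gene identifier (37693 of 39179 genes matched).

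Members and gene lists were chosen with earlier results of these data known. Low genes were removed by filterByExpr (minimum count 10, or 28.9 CPM over the shallow libraries), and the rest scaled by TMM and tested over all genes with edgeR 4.0.16 (glmQLFit, robust=TRUE), 2-sided, with Benjamini-Hochberg adjustment and a threshold of 0.05. R was 4.3.3 and DESeq2 1.42.0. Pseudogene copies were assigned by 25-base words of coding sequence in GENCODE transcripts. The trend was a lowess curve (span 0.3) in each library on each gene's log2 ratio, deep library over the others, used as offsets. Between shallow replicates of a group, chi-square divided by degrees of freedom was 1.15 to 1.45, slightly more than counting error alone gives. This value does not show whether replicates were technical or grown separately. The test was checked on data simulated with the 7.25% variation of the shallow libraries. That check does not cover the 75.8% found with all 6 libraries. Named genes were those called, the 2 most abundant per kb and the 2 with the largest fold change in each class, those with the most pseudogene counts, and up to 8 called machinery genes; other names were chosen after their values were seen. Of 133 machinery genes listed, 132 matched. Alternatives were other scalings, no filter, DESeq2, the replicate number as a block, protein-coding genes only, copies added, thinning of the deep library and leaving out each library.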

Additional observations from a re-analysis of the deposited data

How the results depend on the processing

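Over 6 libraries, the count of 0 splicing factor genes and of 0 machinery genes stayed 0 under every alternative run except leaving out a library, which gave 0 to 4 for each (4 without Sirpa-KO replicate 1). Over the shallow libraries, the 4 splicing factor genes became 9 with library size alone, 1 with DESeq2, 1 with the trend removed, and between 0 and 4 when single libraries were dropped. The 4 machinery genes became 13 under scaling to library size, 1 unfiltered, 0 with DESeq2, 0 with the trend removed and 0 to 5 with each library left out. DESeq2 gave an adjusted p to 20 of 37 and 18 of 107 of these genes, so fewer could be called. All genes called, 322 (73 higher, 249 lower), became 407 with library size alone (279 higher, 128 lower), 132 with DESeq2, 196 among protein-coding genes, 109 with the trend removed and 125 to 351 with each library left out. With the replicate block 4 splicing factor genes were called over the shallow libraries (Hnrnph1 gained, Ddx39b lost at -0.33, adjusted p = 0.097). Deviations of same-numbered libraries correlated at r = 0.024, -0.042 and 0.058, which cannot show whether those libraries were paired. Values for Sirpa-KO replicates 2 and 3 mirrored those of the deep library, as with Sirpa-WT replicate 2 (-0.042 and -0.041 against 0.042). Deviations within a group are tied to each other, so this mirroring is no separate observation.

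Signs turned for some log2 fold changes, and beyond the copies added the cause was not tested. With copies added, Hnrnpa1 was -0.037 (-0.48 over 6 libraries), Hnrnpa3 -0.28 (-0.72), Srsf3 -0.020 and Hnrnpf -0.20. The replicate block gave Srsf3 -0.040, Sfpq 0.026 and Hnrnpa3 -0.020. The trend removed gave Sfpq 0.13 and Hnrnpa3 -0.15. With each library left out, Srsf3 ran from -0.044 to 0.11, U2af1 from -0.0099 to 0.20, Sfpq from -0.25 to 0.028 and Hnrnpa3 from -0.019 to 0.12. At the depth of the shallow libraries, genes under roughly 28.9 CPM were not tested.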
